A study of Mus musculus with 4 samples.

Results

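The genes of cholesterol synthesis, sterol sensing and sterol transport were read on 4 mouse arrays. They were the probe sets whose annotated gene was 1 of 28 listed symbols. Of these, 26 genes were measured, by 56 probe sets, among 18193 named genes in all. Acat2 and Nr1h2 were not analysed here. The other members are 17 synthesis enzymes, 5 genes of sterol sensing, 3 of sterol transport and the liver X receptor gene Nr1h3. Each gene is given by its brightest probe set, and 25 of the 26 genes were past the filter on dim probe sets, a mean log2 intensity of 7.23. Nr1h3, at 6.80 in Smo-deficient and 7.06 in WT LSK, and 7.02 in Smo-deficient and 7.09 in WT MP, was below it.

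Cells make cholesterol from acetyl-CoA, first through mevalonate to farnesyl diphosphate and then through squalene and lanosterol to the sterols. When sterols in the endoplasmic reticulum are scarce, SCAP escorts the SREBP transcription factors to the Golgi for cleavage, and these switch on the synthesis genes. INSIG proteins hold SCAP back when sterols are plentiful, and oxysterols activate the liver X receptors (LXR), which drive export. Sterols bind Smoothened and modulate it, which links this pathway to the deleted gene.

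Mutant mice were Smo flox/flox, Mx1Cre+ (Smo-deficient), and their controls were Smo flox/flox, Mx1Cre- (WT), so both carried the floxed alleles. The Mx1 promoter responds to interferon and is not restricted to blood cells. Mice of both genotypes received the interferon inducer polyI:C, 20 ug/g in each of 3 injections given every other day, and marrow was taken 6 weeks later. Ages are not given in the sources used here, sexes were mixed, and the strain is entered as C57BL/6x130 for Smo-deficient LSK, C57BL/6x129 for WT LSK, C57BL/6x132 for Smo-deficient MP and C57BL/6x131 for WT MP. LSK cells (Lin-, c-Kit+, Sca-1+) hold the stem cells and multipotent progenitors, while MP cells (Lin-, c-Kit+, Sca-1-) are myeloid progenitors. Both were sorted from 1 marrow pool of 4 mice per genotype, with 1 array for each of the 4 groups. The entered strain number thus differs even between LSK and MP cells of the same mice. No group has a replicate, so differences between genotypes carry no test.

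On the brightest Smo probe set, 1427048_at, the log2 intensity was 6.96 in Smo-deficient and 10.02 in WT LSK. In MP it was 7.94 in Smo-deficient and 9.72 in WT cells. On 1427049_s_at it was 6.13 in Smo-deficient and 10.81 in WT LSK, and 6.36 in Smo-deficient and 10.40 in WT MP. Both Smo-deficient arrays were thus lower than both WT arrays for the targeted gene. Smo-deficient MP stayed above the filter level on 1427048_at. A further probe set, 1442215_at, was below the filter. Of the LSK markers 5 of 6 measured rose in LSK over MP, and of the MP markers 8 of 9 fell, with Kit, which is on both lists, not passing. The background was 16.4% of genes rising and 7.54% falling. Hybridisation spikes differed by 0.08 ± 0.06 (Smo-deficient minus WT, log2, SD over 9 probe sets) in LSK and by -0.33 ± 0.12 in MP. The Smo-deficient MP array thus had the lower spikes. Pearson correlations between arrays lay between 0.980 and 0.994 across probe sets.

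Promoters of 3 members are printed because these genes had the largest genotype differences in LSK among the sterol sensing genes (Insig1), the mevalonate arm (Hmgcs1) and the squalene and sterol arm (Msmo1). They are RefSeq sequences of build GRCm38.p6, from 250 bases before to 50 after the gene start, at chr5:28071162-28071461 (plus strand), chr13:119690101-119690400 (plus strand) and chr8:64733529-64733828 (minus strand). Capitals mark CACNCCAC, the core of the sterol element that SREBP binds, and CCAAT, the box bound by NF-Y, on either strand. The matches did not overlap each other.
Insig1: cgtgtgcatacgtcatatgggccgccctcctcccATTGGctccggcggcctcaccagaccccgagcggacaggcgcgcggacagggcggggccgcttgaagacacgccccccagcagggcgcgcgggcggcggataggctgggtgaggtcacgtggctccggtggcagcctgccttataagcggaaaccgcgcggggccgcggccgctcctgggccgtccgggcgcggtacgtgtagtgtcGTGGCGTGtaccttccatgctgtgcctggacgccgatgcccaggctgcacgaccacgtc
Hmgcs1: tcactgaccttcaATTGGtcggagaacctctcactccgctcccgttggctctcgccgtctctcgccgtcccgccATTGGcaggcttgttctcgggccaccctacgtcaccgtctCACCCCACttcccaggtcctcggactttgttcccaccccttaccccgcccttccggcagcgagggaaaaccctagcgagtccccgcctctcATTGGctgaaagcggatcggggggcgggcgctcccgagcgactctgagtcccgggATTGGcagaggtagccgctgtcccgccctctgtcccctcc
Msmo1: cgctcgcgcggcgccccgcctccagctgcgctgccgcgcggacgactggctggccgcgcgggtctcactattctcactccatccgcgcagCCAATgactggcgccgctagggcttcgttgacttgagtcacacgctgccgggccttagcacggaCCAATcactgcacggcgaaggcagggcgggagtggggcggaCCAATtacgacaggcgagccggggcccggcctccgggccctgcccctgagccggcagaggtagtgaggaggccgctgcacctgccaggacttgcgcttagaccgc
The Hmgcs1 window held 1 match of CACNCCAC and 4 of CCAAT, the Insig1 window 1 of each, and the Msmo1 window 3 of CCAAT. RefSeq windows were found for 23 of the 28 listed genes, 32 windows in all. Among them 20 held CCAAT, against 37.4% of 32851 mouse windows, and 3 held CACNCCAC, against 6.24%. A match is a run of letters and was not tested as a binding site.

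Of the sterol genes, Insig1 alone was past 1.5-fold between Smo-deficient and WT cells, in LSK. No member differed by 2-fold between genotypes in either population. The background at 2-fold was 0.689% of 11904 genes higher and 0.26% lower in Smo-deficient LSK, and 0.269% higher and 0.294% lower in Smo-deficient MP. At 1.5-fold, 0.58 on the log2 scale, 1 of 25 members was higher and 0 were lower in Smo-deficient LSK (background 3.14% and 0.924%). In MP 0 of 25 were higher and 0 lower (background 2.56% and 2.24%). These counts are near the background and do not set the members apart from other genes. Differences are log2 values, Smo-deficient minus WT, and are set beside the spread, by which is meant how widely probe sets with a similar mean level scatter in that difference (a robust SD). It says how these 2 arrays differ in general and gives no replicate error. Its median over levels was 0.21 in LSK and 0.22 in MP. Of the members, 24 of 25 in LSK (background 90.9%) and 25 of 25 in MP (background 89.9%) lay within 2 spreads of 0, which is near the share of all genes. In LSK 11 of 25 were above 0 (background 46.8%) and 14 below (53.2%). In MP 7 were above 0 (background 40.3%) and 18 below (59.7%), and 6 were above 0 in LSK and below 0 in MP (background 20.3%).

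**Figure D1:**
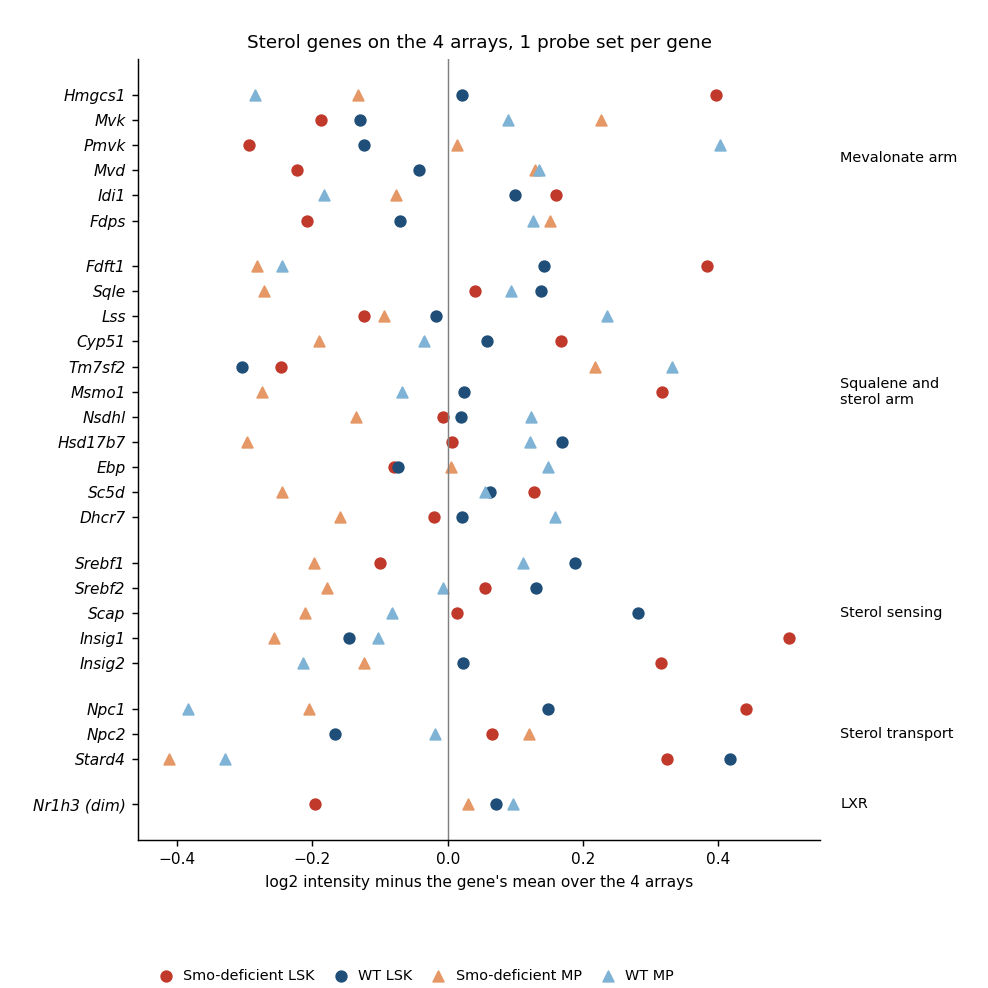
Log2 intensity of each member on the 4 arrays, minus that gene's mean, with 1 point per array; circles are LSK, triangles MP, red and orange Smo-deficient, dark and light blue WT. Insig1 in Smo-deficient LSK stands apart from its other 3 arrays, and the 2 LSK points of Stard4 lie above its 2 MP points.

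The gene that stood apart was Insig1, whose protein retains SCAP in the endoplasmic reticulum and is itself an SREBP target. Its log2 intensity was 8.91 in Smo-deficient and 8.26 in WT LSK, and 8.15 in Smo-deficient and 8.30 in WT MP. Smo-deficient LSK was the high array, and the other 3 lay within a narrow band. The genotype difference was 0.65 in LSK, 1.57-fold, beside a spread of 0.21, and -0.15 in MP. In LSK it was 0.59 after quantile normalization, 0.66 after cyclic loess and 0.57 with an offset before log2. Only 1 probe set reads Insig1, so no other one checks it. For the same reason the filter settings and the mean of probe sets could not change its difference.

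Insig2, the second retention factor, read 9.81 in Smo-deficient and 9.52 in WT LSK, and 9.37 in Smo-deficient and 9.28 in WT MP. It was higher by 0.29 in Smo-deficient LSK and by 0.09 in Smo-deficient MP. Its other probe sets, 1417980_a_at and 1417982_at, differed by 0.28 and 0.25 in LSK, and by 0.14 and -0.11 in MP. The LSK difference was thus alike on all 3 probe sets, while in MP their signs parted.

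Of the escort and the transcription factors, only Srebf1 kept the sign of its difference in both populations under all 6 other processing settings. Srebf1 has 1 probe set, so the filter settings and the mean of probe sets could not change its values. Scap, the sterol sensor, read 11.59 in Smo-deficient and 11.85 in WT LSK, and 11.36 in Smo-deficient and 11.49 in WT MP, with genotype differences of -0.27 in LSK and -0.13 in MP, the second of which was 0.01 after quantile normalization. Srebf1, which encodes the SREBP more tied to fatty acid synthesis, read 11.46 in Smo-deficient and 11.75 in WT LSK, and 11.36 in Smo-deficient and 11.67 in WT MP. It was lower in both Smo-deficient samples, by log2 differences of -0.29 in LSK and -0.31 in MP, beside spreads of 0.21 and 0.22, and the MP difference ranged from -0.31 to -0.17 under the other settings. Srebf2, which encodes the main SREBP of cholesterol synthesis, read 9.20 in Smo-deficient and 9.28 in WT LSK, and 8.97 in Smo-deficient and 9.14 in WT MP. Its differences of -0.08 and -0.17 were within 1 spread, the LSK value turned to 0.04 with the mean of all its probe sets, and its probe set 1426744_at differed by 0.16 in LSK and -0.12 in MP.

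In the mevalonate arm the enzymes went different ways. The first of those measured, Hmgcs1, which makes HMG-CoA, read 12.10 in Smo-deficient and 11.72 in WT LSK, and 11.57 in Smo-deficient and 11.42 in WT MP. It was higher by 0.37 in Smo-deficient LSK and by 0.15 in Smo-deficient MP. Its 3 other probe sets past the filter differed by 0.18 to 0.21 in LSK and by -0.14 to 0.18 in MP. Pmvk, the phosphomevalonate kinase, read 9.15 in Smo-deficient and 9.32 in WT LSK, and 9.45 in Smo-deficient and 9.84 in WT MP. Its difference was -0.17 in LSK and -0.39 in MP, so that WT MP was its highest array. Mvk, the mevalonate kinase, Mvd, which decarboxylates the diphosphate, Idi1, the isomerase, and Fdps, the farnesyl diphosphate synthase, differed by -0.18 (Mvd) to 0.06 (Idi1) in LSK and by -0.01 (Mvd) to 0.14 (Mvk) in MP. On its other probe set Idi1 differed by -0.11 in LSK and -0.28 in MP, so its direction depends on the probe set. The MP value of Mvd turned above 0 under quantile normalization and cyclic loess. The other probe set of Mvk gave -0.03 in MP. Of the 6 measured genes of the arm, 2 lay above 0 in LSK (background 46.8%) and 4 in MP (background 40.3%). Of its 12 probe sets past the filter, 6 lay above 0 in MP and 6 below.

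In the squalene and sterol arm all 11 enzymes were lower in Smo-deficient MP, with differences of -0.04 (Fdft1) to -0.42 (Hsd17b7). The background below 0 in MP was 59.7% of genes. Their median was -0.26, against -0.05 for all genes past the filter and -0.08 for genes of like level. In LSK 6 of 11 lay below 0, with a median of -0.01, and the background was 53.2%. After quantile normalization the MP median was -0.16 with 10 of 11 below 0 (background 49.8%). After cyclic loess it was -0.14 with 10 of 11 below 0 (background 46.5%). The medians of all genes were then 0.001 and 0.02. Fdft1 was above 0 under both settings. No single enzyme was 1.5-fold lower, and none lay beyond 2 spreads. Spikes on the array of Smo-deficient MP were low in the same direction as these enzymes, and their part in the result was not tested.

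Counted over probe sets rather than genes, 15 of the 18 of this arm past the filter were below 0 in MP (background 59.7% of genes). Several of these probe sets read the same gene, so they are not independent. The 3 above 0 were 1 of Cyp51 and 2 of Sc5d.

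Hsd17b7, a sterol ketoreductase, had the most negative MP difference of the arm. Its log2 intensity was 9.28 in Smo-deficient and 9.44 in WT LSK, and 8.98 in Smo-deficient and 9.40 in WT MP. The 2 other Hsd17b7 probe sets past the filter gave MP differences of -0.28 and -0.13. Sqle, the epoxidase that acts on squalene, read 11.13 in Smo-deficient and 11.23 in WT LSK, and 10.82 in Smo-deficient and 11.19 in WT MP. For both enzymes the Smo-deficient MP array was low and the other 3 were close together. Lss, which closes the ring to lanosterol, read 9.73 in Smo-deficient and 9.84 in WT LSK, and 9.76 in Smo-deficient and 10.09 in WT MP. Dhcr7, which makes cholesterol in the last step of its branch, read 10.14 in Smo-deficient and 10.18 in WT LSK, and 10.00 in Smo-deficient and 10.32 in WT MP. Their differences in MP were -0.33 for Lss and -0.32 for Dhcr7, with WT MP the highest array of each. Sc5d, the lathosterol oxidase, read 9.48 in Smo-deficient and 9.42 in WT LSK, and 9.11 in Smo-deficient and 9.41 in WT MP. Nsdhl, a decarboxylating sterol dehydrogenase, read 10.57 in Smo-deficient and 10.60 in WT LSK, and 10.44 in Smo-deficient and 10.70 in WT MP. The Smo-deficient MP array was again the lowest for both, but 2 other probe sets of Sc5d gave 0.10 and 0.06 in MP.

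Msmo1, the sterol C4 methyl oxidase, parted by population. It read 9.69 in Smo-deficient and 9.40 in WT LSK, and 9.10 in Smo-deficient and 9.30 in WT MP. Its difference was 0.29 in LSK and -0.21 in MP. Cyp51, the lanosterol demethylase, read 9.27 in Smo-deficient and 9.16 in WT LSK, and 8.91 in Smo-deficient and 9.06 in WT MP, with differences of 0.11 and -0.16, but on 1422533_at the differences were 0.31 (LSK) and 0.15 (MP). Fdft1, the squalene synthase, read 10.33 in Smo-deficient and 10.09 in WT LSK, and 9.67 in Smo-deficient and 9.70 in WT MP. Its differences were 0.24 and -0.04, and on 1438918_at they were -0.28 and -0.06, so its direction in LSK depends on the probe set. Ebp, the sterol isomerase, and Tm7sf2, a C14 sterol reductase, differed by -0.01 and 0.06 in LSK, where both turned sign after quantile normalization, and by -0.14 and -0.11 in MP.

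**Figure D2:**
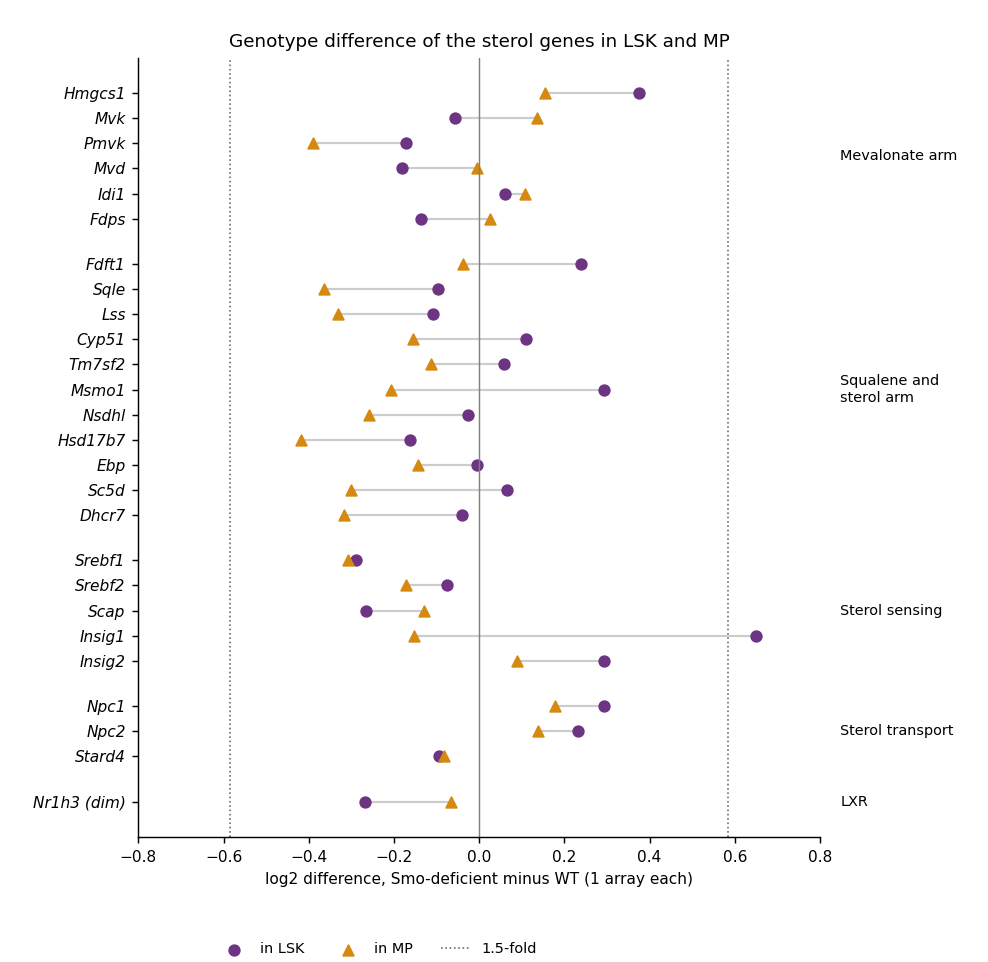
Log2 difference, Smo-deficient minus WT, of each member in LSK (circles) and in MP (triangles), 1 array per group, with dotted lines at 1.5-fold. Insig1 in LSK is the only point outside the lines, and in the squalene and sterol arm every triangle lies left of 0 and left of its circle, although that of Fdft1 (-0.04) turned above 0 after quantile normalization (0.03) and cyclic loess (0.07).

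The genotype difference was higher in LSK than in MP for all 11 enzymes of the squalene and sterol arm, by 0.14 to 0.50, and for 19 of the 25 members. The background was 59.8% of genes. The median of the arm was 0.26, against 0.06 for all genes and 0.09 for genes of like level. It was 0.16 after quantile normalization (all genes -0.02) and 0.18 after cyclic loess (all genes -0.01). In each, 11 of 11 were above 0 (background 45.5% and 48.8%). Over probe sets past the filter, 16 of the 18 of the arm were above 0 and 2 below. In the mevalonate arm 2 of 6 genes and 6 of 12 probe sets were above 0. The Smo-deficient MP array was the lowest of the 4 for 8 of the 11 sterol arm enzymes, against 28.8% of all genes. With 1 array per group none of this could be tested. Hybridisation spikes differed by 0.08 in LSK and -0.33 in MP (Smo-deficient minus WT, log2). Their part in these differences was not tested. All 11 values share the same 4 arrays, and in bulk RNA fewer cells of a type and less RNA per cell cannot be told apart.

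Among the transport genes, Npc1, which moves cholesterol out of lysosomes, read 8.62 in Smo-deficient and 8.33 in WT LSK, and 7.97 in Smo-deficient and 7.79 in WT MP. It was higher by 0.29 in Smo-deficient LSK and by 0.18 in Smo-deficient MP. Npc2, its soluble partner in the lysosome, read 13.88 in Smo-deficient and 13.65 in WT LSK, and 13.94 in Smo-deficient and 13.80 in WT MP. The differences of Npc2 were 0.23, beside a spread of 0.12, and 0.14, beside one of 0.15, and its 2 further probe sets past the filter gave 0.22 and 0.45 in LSK. Stard4, a cytosolic sterol carrier, had differences of -0.09 (LSK) and -0.08 (MP), and both turned above 0 with the mean of its probe sets. Its other probe sets lay above 0, at 0.10 and 0.13 (LSK) and at 0.21 and 0.12 (MP). By their brightest probe sets Npc1 and Npc2 were thus higher in both Smo-deficient samples, within 2 spreads.

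Markers of other cells moved with the Smo-deficient LSK array on which Insig1 was high. Macrophage markers, 8 of 8 past the filter, were above WT in LSK (background 46.8% of genes above 0). All measured ones had summed intensities of 3837 in Smo-deficient and 2472 in WT LSK, and 3413 and 3163 in Smo-deficient and WT MP. Neutrophil markers, 8 of 8, summed to 117684 in Smo-deficient and 74292 in WT LSK, and to 102441 and 89948 in Smo-deficient and WT MP. B cell markers were above WT in LSK in 6 of 6 and summed to 2976 in Smo-deficient and 2023 in WT LSK, and to 2335 and 1939 in Smo-deficient and WT MP. Mature erythroid markers, 3 of 3, summed to 9817 in Smo-deficient and 6051 in WT LSK, and to 7565 and 6622 in Smo-deficient and WT MP. The early erythroid genes of the MP list went the other way, with Gata1 at -0.79, Epor at -0.76 and Klf1 at -0.69 in LSK, and at -0.54, -0.72 and -0.48 in MP. The LSK markers were above 0 in 6 of 6 in LSK (median 0.54, with Flt3 at 1.21 and Procr at 1.11) and in 5 of 6 in MP. Among the myeloid genes of the MP list, Csf1r was at 1.21 and Elane at 0.87 in LSK, and at 1.09 and 0.77 in MP. The macrophage genes Axl and Marco, the B cell gene Ebf1, the T and NK cell genes Cd3d, Cd3g and Ncr1, and the globin gene Hba-a1 were below the filter. They are part of the sums, which run over all measured markers of a list, but not of the counts. Proliferation genes were lower in Smo-deficient cells, 13 of 13 in LSK (background 53.2%) and 12 of 13 in MP (background 59.7%). Their medians were -0.22 and -0.34. T and NK cell markers, 3 of 4 past the filter above 0 in LSK, summed to 6378 in Smo-deficient and 5990 in WT LSK, and to 6444 and 5047 in Smo-deficient and WT MP. The part of all these markers in the differences of the sterol genes was not tested.

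Neighbouring pathways were read in the same way. The 12 fatty acid synthesis genes were all below 0 in Smo-deficient MP (background 59.7%). Their median there was -0.17, against -0.05 for all genes past the filter. The lowest were the desaturase gene Fads2 (-0.77), the acyltransferase gene Gpam (-0.49) and the elongase gene Elovl6 (-0.37). After quantile normalization 9 of 12 were below 0 (background 49.8%) and after cyclic loess 8 (background 46.5%). The part of the low spikes of the Smo-deficient MP array was not tested. In LSK 7 of 12 were below 0 (background 53.2%), with Acss2 at -0.33 and Fasn at -0.26. Of 7 LXR target genes past the filter 4 were above 0 in LSK (background 46.8%) and 3 below, with a median of 0.38. Above were the cholesterol exporter gene Abca1 (0.71), the phospholipid transfer gene Pltp (0.51) and Mylip (0.42), which encodes a ligase that degrades lipoprotein receptors, beside Abcg1 (0.38). Below were the apolipoprotein gene Apoe (-0.38), Lpcat3 (-0.12) and Abcg8 (-0.01), and these last 4 were named after their values were seen. The median without the filter was 0.18, and the macrophage, neutrophil, B cell and mature erythroid markers were high on the same array, a link that was not tested. In MP 6 of 7 were above 0 (background 40.3%), with Pltp at 0.43.

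Against the same backgrounds of 46.8% of genes above 0 in LSK and 40.3% in MP, 10 of 11 sterol binding genes were above 0 in LSK, with a median of 0.20, led by Osbpl5 (0.59) and Gramd1a (0.50), and 8 in MP. Among 5 genes of sterol esters and oxysterols, 3 were above 0 in each population. In LSK these were the ester hydrolase genes Nceh1 (0.60) and Lipa (0.49) and the hydroxylase gene Cyp27a1 (0.36), while Lcat (-0.25) and Hsd3b7 (-0.19), named after their values were seen, were below 0. The 7 genes of SREBP processing and degradation were above 0 in LSK, with a median of 0.13 and Syvn1 the highest (0.18). In MP 3 of 7 were above 0, with Ufd1 the lowest (-0.25). In MP 5 of 7 were above 0 after quantile normalization (background 50.1%) or cyclic loess (background 53.5%). Of the 8 genes of the isoprenoid branch, which leaves the pathway after the mevalonate arm, 4 were above 0 in LSK and 2 in MP, with the farnesyltransferase gene Fntb the lowest in LSK (-0.31) and Pdss2 the lowest in MP (-0.34). In LSK, Abca1 and Nceh1 of these lists passed 1.5-fold, beside Osbpl5. Lbr, a sterol reductase of the nuclear envelope, had differences of 0.06 (LSK) and -0.04 (MP), and Acat1, a thiolase, of -0.02 and -0.26. In the hedgehog list, the receptor gene Ptch1 was at 0.09 in LSK and -0.42 in MP.

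The largest differences between LSK and MP cells among the members were those of the transport genes Stard4 and Npc1, which rose in LSK. LSK was tested against MP with limma, with the pool as a block, and a gene passed at a p below 0.05 after Benjamini-Hochberg adjustment over all probe sets. Of 25 members, 4 rose in LSK (background 16.4% of 11904 genes), 2 fell (background 7.54%) and 19 did not pass. These shares are near the background, so the number of calls sets the members apart from other genes in neither direction. Over all genes 1951 rose and 898 fell, and after quantile normalization 1748 rose and 1427 fell. With 4 arrays each probe set keeps only 1 degree of freedom for its own variance, and variation from mouse to mouse is hidden in the pools. Because 1 pool is Smo-deficient and 1 is WT, that degree of freedom also holds any real difference between genotypes in LSK minus MP.

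Stard4 read 10.39 and 10.49 in LSK (Smo-deficient and WT) and 9.66 and 9.74 in MP (Smo-deficient and WT). Both LSK values lay above both MP values. The mean difference was 0.74 ± 0.11 (moderated SE of limma, n = 2 pools), 1.67-fold, with an adjusted p of 0.00527 in limma. This SE, here and for the genes below, draws on the variance of other probe sets and is not the spread between the 2 pools. The other Stard4 probe sets, 1455011_at and 1429239_a_at, gave 0.88 and 0.52 and passed too. Npc1 read 8.62 and 8.33 in LSK (Smo-deficient and WT) and 7.97 and 7.79 in MP (Smo-deficient and WT), again without overlap. It rose by 0.59 ± 0.11, 1.5-fold (limma adjusted p = 0.012). Npc2 differed by -0.10 and did not pass.

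Hmgcs1 and Fdft1, which open the 2 arms of synthesis measured here, were the enzymes that rose. Hmgcs1 read 12.10 and 11.72 in LSK (Smo-deficient and WT) and 11.57 and 11.42 in MP (Smo-deficient and WT), and rose by 0.42 ± 0.10 (limma adjusted p = 0.0269). Both 1433445_x_at and 1433444_at passed too, at 0.42 and 0.49, while 1433446_at, at 0.12, did not. Fdft1 read 10.33 and 10.09 in LSK (Smo-deficient and WT) and 9.67 and 9.70 in MP (Smo-deficient and WT), and rose by 0.53 ± 0.12 (limma adjusted p = 0.0263). The probe sets of Fdft1 disagreed, with 0.07 on 1448130_at and -0.22 on 1438918_at, neither of which passed.

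Tm7sf2 and Pmvk fell in LSK. Tm7sf2 read 8.94 and 8.88 in LSK (Smo-deficient and WT) and 9.40 and 9.51 in MP (Smo-deficient and WT), with a mean difference of -0.55 ± 0.12 (limma adjusted p = 0.018). Pmvk read 9.15 and 9.32 in LSK (Smo-deficient and WT) and 9.45 and 9.84 in MP (Smo-deficient and WT), with a mean difference of -0.42 ± 0.12 (limma adjusted p = 0.0492). For both genes the LSK values lay below the MP values in each pool. Pmvk sat at the threshold and passed under 4 of 8 alternatives, against 8 for Stard4, 7 for Npc1 and Tm7sf2, and 6 for Hmgcs1 and Fdft1. The other mevalonate arm members with negative differences, Mvk (-0.32), Mvd (-0.26) and Fdps (-0.28), did not pass. Idi1 (0.26) did not pass either.

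**Figure D3:**
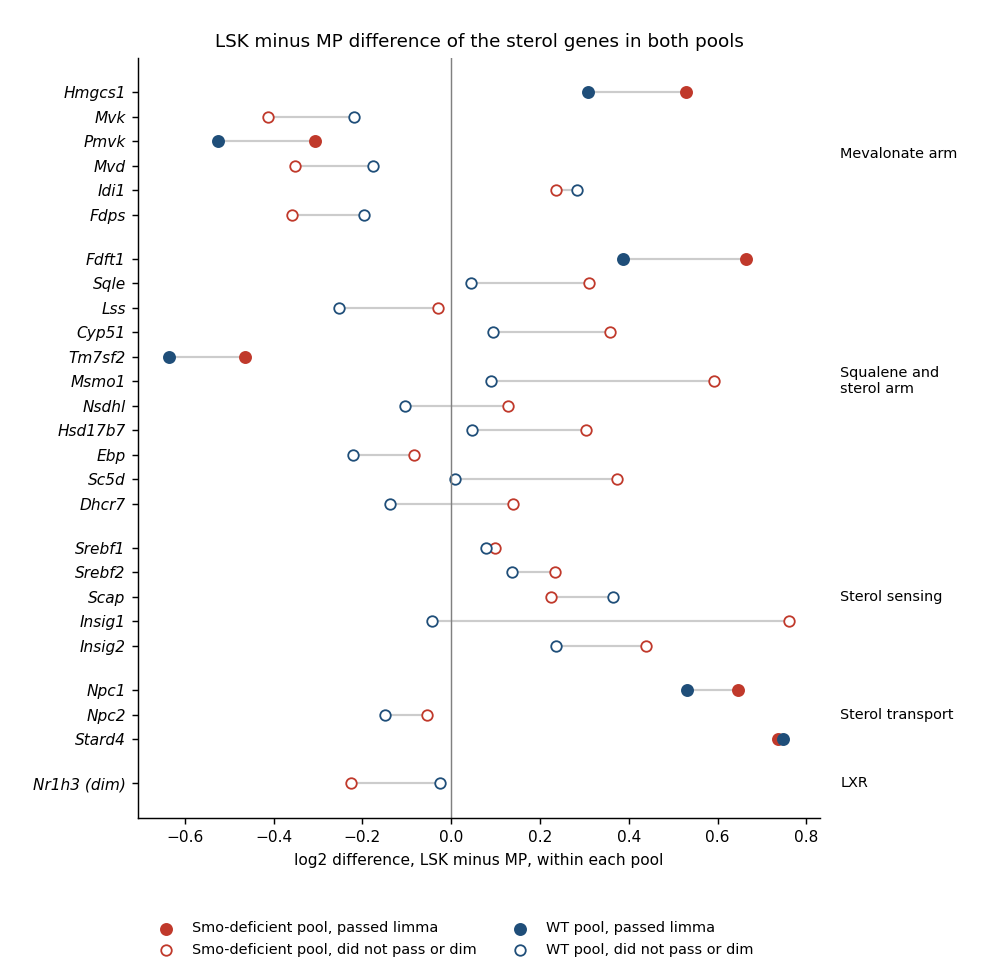
Log2 difference, LSK minus MP, of each member in the Smo-deficient pool (red) and the WT pool (blue), with filled points for the 6 genes that passed limma over both pools. Stard4 has nearly the same value in both pools, whereas Insig1 is at 0.76 in the Smo-deficient pool and -0.04 in the WT pool.

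The sterol sensing genes all had positive mean differences, from 0.09 (Srebf1) to 0.36 (Insig1), and 0 of 5 passed in limma on their brightest probe sets, with 2 at an unadjusted p below 0.05. For Insig1 the pools did not share the difference, with 0.76 in the Smo-deficient pool and -0.04 in the WT pool (mean 0.36 ± 0.19, limma adjusted p = 0.224). Insig2 gave 0.34 and Scap 0.29. For Srebf2 the probe sets parted. The brighter one gave 0.19 (limma adjusted p = 0.283). The other, 1426744_at, was higher in LSK by 0.94 in the Smo-deficient pool and 0.66 in the WT pool, and rose by 0.80 ± 0.12 (limma adjusted p = 0.00573).

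Cyp51 and Lss also depended on the probe set. On Cyp51 the brightest probe set gave 0.23 without passing, while 1422533_at read 9.22 and 8.92 in LSK (Smo-deficient and WT) and 8.48 and 8.33 in MP (Smo-deficient and WT) and rose by 0.66 (limma adjusted p = 0.00875). Lss gave -0.14 without passing, and its probe set 1426913_at, below the filter and therefore not tested, gave 1.02. The remaining enzymes, Sqle, Msmo1, Nsdhl, Hsd17b7, Ebp, Sc5d and Dhcr7, had mean differences from -0.15 (Ebp) to 0.34 (Msmo1), and none passed. Msmo1 was higher in LSK by 0.59 in the Smo-deficient pool and by 0.09 in the WT pool. Across the 11 enzymes of that arm the median LSK minus MP difference was 0.30 in the Smo-deficient pool and 0.01 in the WT pool. Hybridisation spikes differed by 0.49 ± 0.09 in the Smo-deficient pool and 0.08 ± 0.08 in the WT pool (LSK minus MP, log2, SD over 9 probe sets), and their part in that median was not tested.

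**Figure D4:**
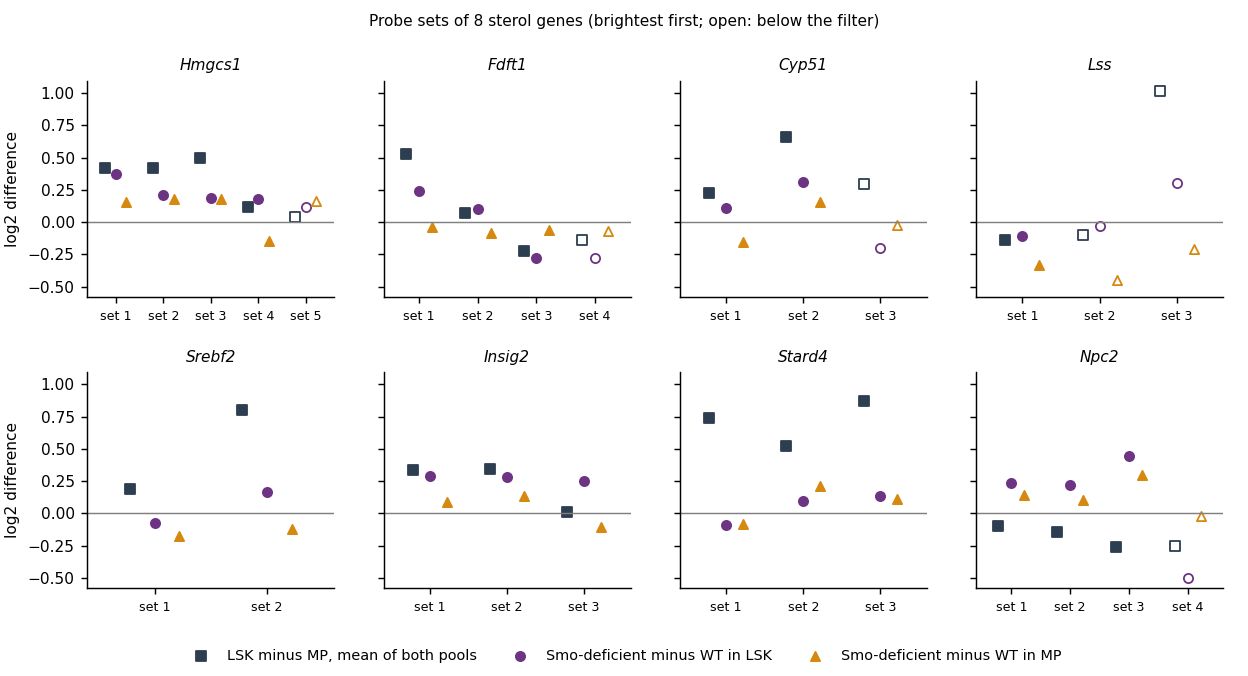
Log2 differences of every probe set of 8 members, brightest first, with squares for LSK minus MP (mean of both pools), circles for Smo-deficient minus WT in LSK and triangles for the same in MP; open symbols are below the filter. The LSK minus MP values agree in sign for the probe sets of Stard4 and part for those of Fdft1 and Lss.

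Among the neighbouring lists, counts of limma calls stand against a background of 16.4% of genes that rose in LSK and 7.54% that fell. LSK minus MP passed in limma for the cholesterol exporter gene Abcg1 (0.89, adjusted p = 0.00194) and for Mylip (0.76) among 7 LXR targets. It passed for 4 of 11 sterol binding genes, Osbpl9 (0.86), Gramd1a (0.77), Osbpl5 (0.74) and, named because it passed, Scp2 (0.34). Of 5 genes of sterol esters and oxysterols past the filter, Nceh1 (1.01) and Hsd3b7 (0.46) rose. In fatty acid synthesis Scd2 (0.47) and Elovl6 (0.59) rose and Acss2 (-0.50) fell, and 9 of 12 did not pass. Ufd1 (-0.47) fell in the SREBP processing list, and of the 8 isoprenoid genes 0 passed in limma, with 2 at an unadjusted p below 0.05. Poly-A spikes, added before amplification, were higher in LSK than in MP by 0.59 ± 0.18 in the Smo-deficient pool and 0.44 ± 0.25 in the WT pool (SD over 12 probe sets), and their part in these differences was not tested.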

How the data were processed

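RNA of LSK and MP cells, sorted from 1 pool of 4 mice per genotype, was measured on Affymetrix arrays after 2 rounds of amplification from 20 ng of total RNA, per the labels' protocols. The authors deposited intensity values for 45101 probe sets on 4 arrays, made with RMA per the submitters' processing notes. RMA gives log2 values, but the deposited values ran from 12.3 to 44290.5, so they were read as linear and log2 was taken with no offset. Such normalization can remove a change shared by most genes. The 64 control probe sets were set aside. Genes were named from the platform annotation, in which 34945 probe sets had 1 gene, 932 several and 9160 none. Probe sets with a mean above the 50th percentile (log2 7.23) were kept, 22518 in all, 19711 of them for 1 of 11904 genes, and the brightest single-gene probe set represented a gene.

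LSK minus MP was fitted with limma 3.58.1 in R 4.3.3 (trend, two-sided, pool as a block because both populations came from 1 marrow pool) over all 22518 probe sets, with Benjamini-Hochberg adjustment. The script was tested on simulated data. Genotype differences have 1 array per group and no test. Members that passed, differed 1.5-fold or sense sterols were given on every array; further enzymes and probe sets were added after their values were seen. Other lists give counts and at most the 3 largest differences. Only 4 arrays limit the precision. The members, lists and tests were chosen with earlier results of these data known. Alternatives changed the normalization, offset, filter, probe set choice, block, trend and fold threshold.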

Additional observations from a re-analysis of the deposited data

Results flagged for a closer look

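Insig1 differed between genotypes in opposite directions in LSK and MP, by 0.65 and -0.15 on the log2 scale (Smo-deficient minus WT), and the difference between them was 0.80, beyond 1.5-fold. The MP value lay within its spread of 0.23, and 20.3% of all genes were above 0 in LSK and below 0 in MP. Past 1.5-fold in the difference between populations were 318 of 11904 genes on the higher side and 100 on the lower. With 1 array per group the Insig1 difference was not tested, and its cause was not tested.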

How the results depend on the processing

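Of 500 single-gene values recomputed under the alternatives, 10 lost the limma call and 3 gained it. The other 487 kept it or, where there is no test, moved by less than the spread. Some differences could not move, so these counts, and that of the signs below, overstate how far the results were tried. The filter settings leave every difference as it is, and the block and trend settings change only the limma p. The mean of probe sets leaves the difference of a gene with 1 probe set past the filter as it is. The sign turned in 18 of the 500, of 12 of 75 results, none of them past a threshold: 8 in MP and 6 in LSK between genotypes, with reported sizes of up to 0.13 (Scap in MP), and 4 for LSK minus MP (Dhcr7 and Nsdhl). The replicate block here is the pool. Without it 1 member rose in LSK (Stard4) and 0 fell, against 4 and 2 with it, and over all represented genes 644 passed, against 2849. The fallen members were 1 without the filter, 1 with a filter at the 25th percentile and 1 with eBayes without trend. The median LSK minus MP difference of the members was 0.18, but 0.073 after quantile normalization and 0.045 in the WT pool alone. For the synthesis enzymes it was 0.01, but 0.14 in the Smo-deficient pool alone and -0.10 in the WT pool alone. In MP the median genotype difference of the members was -0.14, but -0.062 (quantile) and -0.035 (cyclic loess), and that of the enzymes was -0.16, but -0.082 (cyclic loess). The median of the LSK minus MP genotype differences was 0.20 for the members, but 0.090 (quantile), 0.12 (cyclic loess) and 0.15 (mean of all probe sets), and 0.22 for the enzymes, but 0.11 (quantile) and 0.13 (cyclic loess). At 1.5-fold in place of 2-fold 1 member differed in LSK. The cause of these shifts was not tested. No paired analysis was possible for the genotypes because each is 1 pool, of which LSK and MP are not independent samples. Signal near the filter limits Nr1h3 and the dim probe sets of Lss.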
